A study of Mus musculus with 21 samples.

Results

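Tumours grown from a pair of IRE1α knockout lines of Myc-CaP cells, KO1 and KO2, were compared with each other over all genes. The libraries were chosen by their line and tissue labels, which gave 3 KO1 tumours and 3 KO2 tumours, 6 of the 21 libraries of the series. Myc-CaP is a mouse prostate cancer cell line. Both knockout lines were made by CRISPR-Cas9 with the same guide against Ern1, the gene of IRE1α, and the tumours were grown as grafts in FVB mice. The 4 tumours of the IRE1α wild-type (WT) line served as the reference, and the 2 cultured libraries each of the WT, KO1 and KO2 lines showed what each line expressed before grafting. A further IRE1α knockout line, KO3, was made with the same guide and is not compared here. Its 3 tumours and 2 cell libraries were part of the fits, where they add to the estimate of the spread. The labels do not say whether KO1 or KO2 is 1 clone or a pool, nor which change the guide left in either line. They do not say that the 3 tumours of a line came from separate animals, so the p-values measure the spread between these samples only. The host of each group is not described beyond its strain.

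IRE1α is a sensor in the membrane of the endoplasmic reticulum. When unfolded proteins build up, its ribonuclease removes a short intron from Xbp1 mRNA, and the spliced mRNA encodes XBP1s, a transcription factor that drives genes for folding, secretion and disposal of proteins. A tumour taken from a mouse holds the grafted cells and the host's fibroblasts, vessels, immune cells, fat and nearby muscle, and RNA from the whole piece is measured together. In such bulk samples fewer cells of a type and less RNA per cell cannot be told apart.

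The guide used for every knockout line is shown because KO1 and KO2 share it, so the lines do not differ in the site that was targeted. The capitals mark the PAM, which is not part of the guide.
Ern1 guide: gcttgcatgctgttagcaagAGG
The guide matched Ern1 on chromosome 11 of GRCm38 at chr11:106458942-106458961, inside the coding part of exon 2 of 22 of transcript ENSMUST00000001059.8, and has the sense of the gene, which lies on the minus strand. Ern1 mRNA was 88.6, 79.5 and 77.3 CPM (counts scaled to library size) in the KO1 tumours and 73.3, 88.6 and 76.2 CPM in the KO2 tumours. The groups overlapped, and both lay near the 65.7 to 83.5 CPM of the WT tumours. The log2 difference between KO1 and KO2 was 0.04 ± 0.12 (SE, adjusted p = 0.895), so the mRNA level does not separate the lines and does not by itself check the knockout.

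The targets of XBP1s were low in both kinds of tumour. Of 40 listed targets tested, 38 were lower in KO1 than in WT tumours and 34 were lower in KO2 than in WT tumours at an adjusted p of 0.05 or less, with median log2 differences of -1.01 and -0.92. Over all genes those comparisons called 10.6% (3.71% higher, 6.86% lower) and 3.04% (0.898% higher, 2.15% lower), and they share the WT tumours. Between KO1 and KO2 none of the 40 targets passed the test with all tumours in the fit, and their median difference was -0.05, beside -0.02 over all 14483 genes tested. Of the 40 targets, 25 were on the lower side in KO1 and 15 on the higher side. Their summed level was 6103 to 6418 CPM in KO1 and 6638 to 6947 CPM in KO2, every KO1 tumour below every KO2 tumour. As a plain share of each library's counts the order was the opposite, at 0.685% to 0.716% in KO1 and 0.678% to 0.683% in KO2. Sec24d, which encodes a coat protein of vesicles leaving the endoplasmic reticulum, was 19.2, 17.2 and 20.3 CPM in KO1 and 15.4, 16.2 and 18 CPM in KO2 tumours, against 69.9 to 86.2 CPM in WT tumours. Dnajb9, an endoplasmic reticulum chaperone, was 15.8, 11.9 and 10.7 CPM in KO1, 15.2, 11.2 and 13.9 CPM in KO2 and 38.1 to 56 CPM in WT tumours. The KO1 and KO2 ranges of both genes overlapped, and all 6 libraries lay below every WT tumour. Creb3l2, a transcription factor of the secretory pathway, was 21, 20.7 and 20.3 CPM in KO1 and 17.9, 16.2 and 17 CPM in KO2 tumours, ranges that lay apart by a log2 difference of 0.28 ± 0.10 that did not pass the test (adjusted p = 0.18).

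Libraries held 15994300 to 17877500 counts in KO1 tumours and 20766800 to 27497800 in KO2 tumours, ranges that do not overlap, and 16613900 to 27164000 in WT tumours. Of 14 epithelial genes tested, 5 were on the higher side in KO1 and 9 on the lower side, with a median log2 difference of -0.11. Ranges lay apart with KO1 above for 1 and KO2 above for 4, and none passed the test. The list summed to 1158 to 1800 CPM in KO1 and 1367 to 1485 CPM in KO2 tumours, which overlap. The 1 member apart with KO1 above, the keratin Krt8, was at 166 to 285 CPM in KO1 and 94.4 to 133 CPM in KO2 tumours. Values of the 4 members apart with KO2 above are not given here. E-cadherin, Cdh1, was at 0.72 to 1.2 CPM in KO1 and 0.459 to 0.768 CPM in KO2, and Epcam was too low to be tested. WT tumour 1 and KO2 tumour 2 carried more muscle RNA than the others of their line.

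A total of 96 genes differed between KO1 and KO2 tumours at an adjusted p of 0.05 or less in edgeR's quasi-likelihood test, 0.663% of the 14483 tested. Of these, 33 (0.228%) were higher and 63 (0.435%) were lower in KO1, and 59 differed by 2-fold or more. The KO1 and KO2 ranges did not overlap for 4073 genes, 28.1% of those tested, with KO1 above for 2091 (14.4%) and KO2 above for 1982 (13.7%). At an unadjusted p under 0.05 there were 2321 genes. The count depended on the libraries in the fit. It was 640 without WT tumour 1, which is 4.46% of 14352 tested (2.73% higher, 1.73% lower). From the 6 KO1 and KO2 libraries alone it was 617, which is 4.48% of 13766 (2.95% higher, 1.53% lower), and with DESeq2 it was 703, or 4.85% (2.37% higher, 2.49% lower). Of the 40 XBP1s targets, 2 were called lower in KO1 with DESeq2 and 2 without WT tumour 1, and none from the 6 libraries alone. Higher genes were 34.4% of the calls with all tumours, 61.3% without WT tumour 1, 65.8% with the 6 libraries alone and 48.8% with DESeq2. Without single other libraries it ran from 13 without KO1 tumour 2 and 14 without KO1 tumour 3 to 208 without WT tumour 4. The count was 43 without KO1 tumour 1, between 15 and 23 without a KO2 tumour, and 62 without WT tumour 3.

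Calls on 10 of the 96 genes held without each of the 13 tumour libraries in turn. Of these, Col15a1, Fgf1, Lgals3bp, Ptk2b, Serpine2 and Zfp799 were higher in KO1, and Cps1, Rgs2, 3930402G23Rik and Gm8300 were lower. Every other called gene named here lost its call without at least 1 library. Set against the range of the 4 WT tumours, 18 of the 33 higher genes had all KO1 tumours above WT while KO2 overlapped it. For 7 more KO1 was above and KO2 below WT, for 7 KO2 was below while KO1 overlapped, and for 1 both were above. Of the 63 lower genes, 37 had KO1 below WT while KO2 overlapped it, 8 had KO1 below and KO2 above, and 7 had KO2 above while KO1 overlapped.

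Genes that the cultured lines hardly express give a view of the host part of the tumours. Grafted cells could also express in the mouse genes that they lack in culture, which was not tested. Of the genes tested in tumours, 1670 stayed under 0.1 CPM in every WT, KO1 and KO2 cell library. Together they made up 1.47%, 1.38% and 1.06% of CPM in the KO1 tumours and 0.725%, 0.795% and 0.643% in the KO2 tumours. The KO1 tumours all lay above the KO2 tumours. Of these genes, 87.8% had a higher fitted level in KO1, with a median log2 difference of 0.84. KO1 lay above KO2 without overlap for 731 of them (43.8%) and below for 36 (2.16%), beside 14.4% and 13.7% of all genes tested. To be tested, a gene needed enough counts in several tumour libraries of any line. Low genes could thus enter through the line in which they were high, and these percentages are not free of that selection. The median level of the 1670 genes was 1.35 to 2.13 CPM in KO1 and 0.853 to 1.2 CPM in KO2 tumours. Against WT their median log2 difference was 0.32 in KO1 and -0.48 in KO2 tumours, and in the WT tumours they made up 0.547% to 2.02% of CPM, with WT tumour 1 the highest. Left without the muscle genes, the shares were 1.02% to 1.44% in KO1 and 0.636% to 0.735% in KO2. The test called 9 of the 1670 genes higher and 3 lower, 0.719% of them, near the 0.663% called over all genes tested. Among the 9221 genes at 5 CPM or more in every one of those cell libraries, 37.9% had a higher fitted level in KO1 and the median was -0.06. Of those, 9 were called higher and 43 lower (0.564%).

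**Figure D1:**
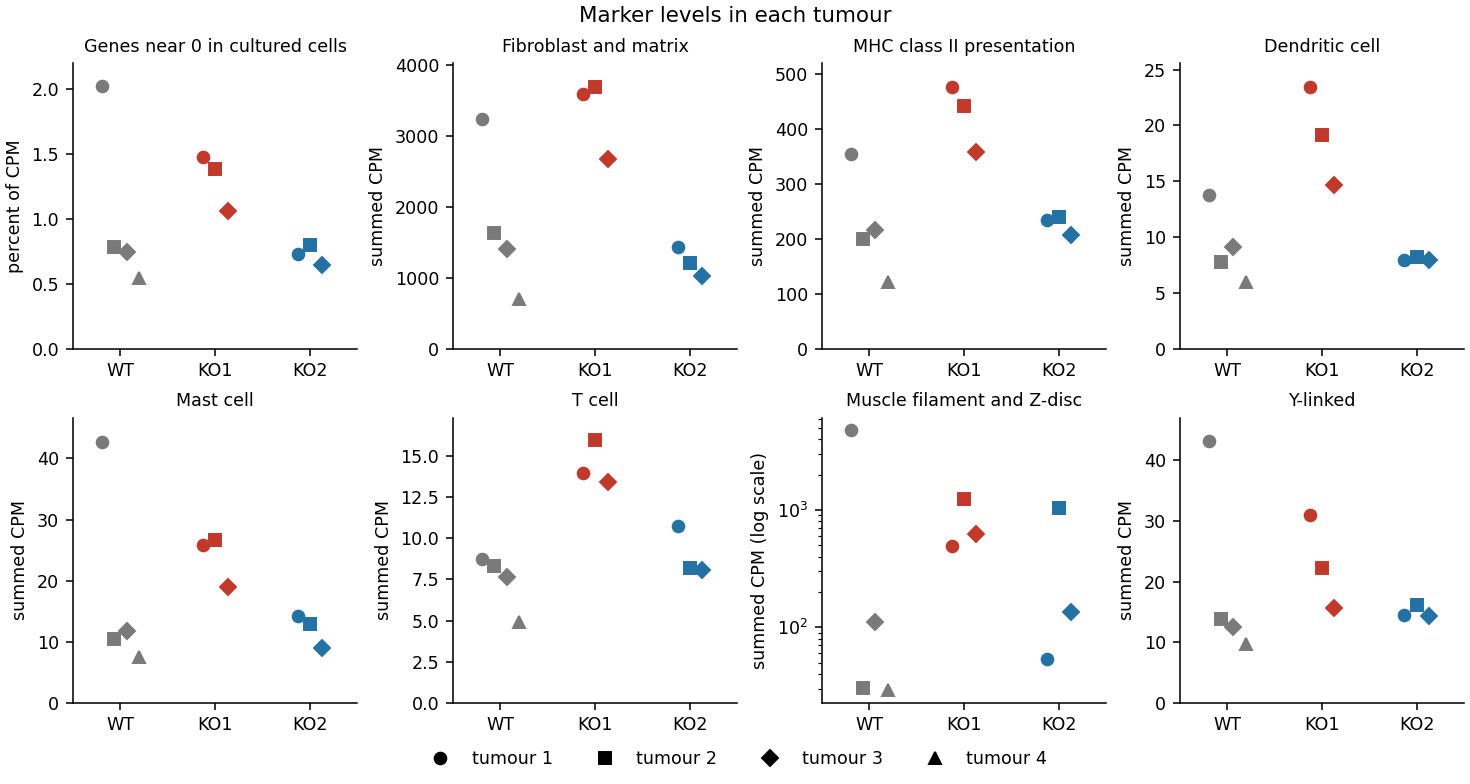
Levels of the genes near 0 in cultured cells (percent of CPM) and of 7 marker lists (summed CPM; the muscle axis is logarithmic) in each WT, KO1 and KO2 tumour; each point is 1 library and its shape gives the tumour number. The KO1 tumours lie above the KO2 tumours for the genes near 0 in culture and for the fibroblast, MHC class II, dendritic, mast and T cell lists, while the muscle list and the Y-linked genes overlap between the lines.

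Fibroblast and matrix genes stood higher in KO1 tumours as a list, though no member passed the test. Their summed level was 3597, 3689 and 2679 CPM in KO1 and 1432, 1210 and 1030 CPM in KO2 tumours, so every KO1 tumour lay above every KO2 tumour. All 18 tested members had a higher fitted level in KO1, with a median log2 difference of 1.33, and for 14 the ranges lay apart. The median was 0.80 for KO1 against WT and -0.50 for KO2 against WT. WT tumours ran from 699 to 3245 CPM and overlapped both lines. The test called 11 members higher from the 6 KO1 and KO2 libraries alone, 10 without WT tumour 1 and 9 with DESeq2. Col1a2, a chain of type I collagen, was 709, 835 and 637 CPM in KO1 and 298, 258 and 218 CPM in KO2, a log2 difference of 1.5 that did not pass (adjusted p = 0.0706).

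Several collagens and matrix proteins outside that list did pass. Col15a1, a collagen of basement membranes, was 76.5, 117 and 108 CPM in KO1 and 45.6, 43 and 42.4 CPM in KO2 tumours, with WT tumours in between at 60.5 to 72.3 CPM and every WT, KO1 and KO2 cell library at 0. The log2 difference was 1.20 ± 0.15 (adjusted p = 0.00451). Col8a1, which lies under endothelium, was 82.9, 88.2 and 103 CPM in KO1 and 48.7, 43.2 and 40.4 CPM in KO2 (log2 difference 1.05). Col6a3, a chain of type VI collagen, was 86.2, 103 and 94.2 CPM in KO1 and 42.5, 54.3 and 33.8 CPM in KO2 (log2 difference 1.12). Serpine2, a secreted inhibitor of serine proteases, was 38, 62.5 and 55.3 CPM in KO1 and 20.9, 14.7 and 23.1 CPM in KO2, a log2 difference of 1.41 ± 0.19 (adjusted p = 0.00826). For all of these the KO1 and KO2 tumours did not overlap. The small matrix gene Fbln7 was 4.2, 7.26 and 4.16 CPM against 0.919, 0.961 and 1.19 CPM, a log2 difference of 2.34 ± 0.39 (adjusted p = 0.0188).

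Vessel-associated lists had smaller medians. Of 18 endothelial markers none passed, 16 were on the higher side in KO1 and the median log2 difference was 0.22, with 5 members apart. Of 13 markers of pericytes and smooth muscle none passed, 11 were on the higher side and the median was 0.52, with 4 members apart. The pericyte and smooth muscle list summed to 205, 267 and 252 CPM in KO1 and 192, 189 and 152 CPM in KO2, every KO1 tumour above every KO2 tumour. DESeq2 called 3 of its members higher, as many as edgeR's test called without WT tumour 1, and 2 were called from the 6 libraries alone. Of the endothelial markers DESeq2 called 1 higher, the test without WT tumour 1 called 2, and the 6 libraries alone gave 1.

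Macrophage markers stood higher in KO1 tumours as a list. They had a median log2 difference of 0.77 over 20 tested members, of which 18 were on the higher side and 14 lay above KO2 without overlap; none passed. KO1 tumours had 7 of these markers called higher than in WT tumours. Their summed level was 1694, 1533 and 1397 CPM in KO1 and 1340, 1217 and 1201 CPM in KO2, with the KO1 tumours above. The cultured lines had 1096 and 1070 CPM (KO1) and 1039 and 991 CPM (KO2) of the same list, so its sum is not a measure of host cells alone. Adgre1, which encodes the macrophage surface protein F4/80, was 55, 51.4 and 42.3 CPM in KO1 and 29, 25.9 and 22 CPM in KO2, a log2 difference of 0.95 ± 0.21 just outside the threshold (adjusted p = 0.0578). C1qb, a subunit of complement C1q made by macrophages, was 111, 127 and 104 CPM in KO1 and 67.1, 70.4 and 62.6 CPM in KO2 (log2 difference 0.77, adjusted p = 0.0615). Outside the list, Mpeg1, which encodes a pore-forming protein of macrophages, passed: it was 262, 243 and 208 CPM in KO1 and 159, 158 and 133 CPM in KO2, a log2 difference of 0.67 (adjusted p = 0.0378). From the 6 libraries alone the test called 9 macrophage markers higher, without WT tumour 1 it called 8, and DESeq2 called 9. Neutrophil markers did not separate the lines. They summed to 9.27 to 16.6 CPM in KO1 and 5.83 to 11.1 CPM in KO2, which overlap, with a median log2 difference of 0.12 over 8 tested, 1 of them apart and none called. That median became -0.74 with the summed muscle level as a covariate and -1.11 with the summed leukocyte level.

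Dendritic and mast cell markers showed wider gaps at lower levels. The summed dendritic cell markers were 23.5, 19.2 and 14.6 CPM in KO1 and 7.91, 8.16 and 7.96 CPM in KO2 tumours. All 10 tested were on the higher side, with a median log2 difference of 1.53 and 8 apart, but none passed. Ccl22, a chemokine of mature dendritic cells, was 3.7, 3.05 and 1.5 CPM in KO1 and 0.742, 0.576 and 0.853 CPM in KO2 (log2 difference 1.91, adjusted p = 0.0742). Mast cell markers summed to 25.9, 26.7 and 18.9 CPM in KO1 and 14.2, 13 and 9.01 CPM in KO2, with a median of 2.07 over 7 members, 5 of them apart. The mast cell chymase gene Cma1 was 4.09, 3.32 and 1.25 CPM in KO1 and 0.353, 0.672 and 0.379 CPM in KO2 (log2 difference 2.62, adjusted p = 0.243). Both lists lay fully above KO2 in KO1 tumours, and the single genes rest on low counts. The mast cell list shows how far the call depends on the fit: 5 members were called higher from the 6 libraries alone, 4 without WT tumour 1, and none by DESeq2 or with all tumours.

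MHC class II genes, which present peptides to CD4 T cells, followed the same direction. Their summed level was 478, 442 and 359 CPM in KO1 and 234, 240 and 206 CPM in KO2, and the 7 of 8 members that could be tested all lay above KO2 without overlap, with a median log2 difference of 1.16 and none past the threshold. H2-Ab1, a class II beta chain, was 46.1, 59.7 and 50.6 CPM in KO1 and 21.5, 22 and 23.2 CPM in KO2 (log2 difference 1.23, adjusted p = 0.202). T cell markers were low: 9 of 20 could be tested, and they summed to 14, 16 and 13.4 CPM in KO1 and 10.8, 8.16 and 8.06 CPM in KO2, with a median of 0.69 and none past the threshold. The 6 tested markers of cytotoxic and NK cells had a median of 1.06 and the 4 of B and plasma cells a median of 0.93, again with none past it. The 11 general leukocyte markers summed to 240 to 316 CPM in KO1 and 180 to 239 CPM in KO2, ranges that lay narrowly apart. All 11 were on the higher side in KO1, with a median of 0.64 and none past the threshold. For 5 of the 11 KO1 lay above KO2 without overlap, beside 14.4% of all genes tested. The leukocyte marker Ptprc (CD45), a member of that list, was 43.9, 26.8 and 20 CPM in KO1 and 22.1, 19.9 and 16.3 CPM in KO2. The lines overlapped for Ptprc, with KO1 tumour 1 the highest.

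Interferon-stimulated genes stood slightly higher in KO1. Their summed level overlapped between the lines, at 1462 to 1732 CPM in KO1 and 1352 to 1505 CPM in KO2 tumours. Of 35 tested, 32 were on the higher side, with a median log2 difference of 0.40. Without overlap, 7 lay above KO2 and 1 below, beside 14.4% and 13.7% of all genes tested. Only 1 of the 35 passed the test. That gene, Lgals3bp, encodes a secreted galectin-binding glycoprotein, and was 115, 140 and 124 CPM in KO1 and 60.4, 59.4 and 62.8 CPM in KO2, with WT tumours at 55.6 to 67.2 CPM. KO2 tumours thus lay within WT and KO1 tumours above both, with a log2 difference of 1.05 ± 0.13 (adjusted p = 0.0049). The same gene was higher in KO1 than in KO2 cells in culture (log2 difference 0.77, adjusted p = 0.026). Against WT, 15 interferon-stimulated genes were called higher in KO1 tumours and 1 in KO2 tumours; those comparisons share the WT tumours. Genes of MHC class I presentation had a median of 0.40 over 14 members, with 6 above KO2 and 1 below without overlap and none called. Their summed level overlapped between the lines, at 3540, 3785 and 3589 CPM in KO1 and 4094, 3438 and 4673 CPM in KO2.

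Fat markers split by library. Adipoq, the adipocyte hormone adiponectin, was 41, 8.7 and 0.301 CPM in KO1, 0.141, 0.288 and 0.142 CPM in KO2, and 38.4, 3.61, 5.81 and 2 CPM in WT tumours 1 to 4. KO1 tumours 1 and 2 were high, KO1 tumour 3 was near KO2, and the KO2 tumours were the lowest. Cfd, the adipocyte protease adipsin, was 75.7, 42.5 and 0.952 CPM in KO1 and 0.53, 0.672 and 0.142 CPM in KO2. Of 22 adipocyte markers tested, 19 were on the higher side, with a median log2 difference of 3.95, 13 above KO2 and 2 below it without overlap. In each KO2 tumour 5 to 7 members of the list had 0 counts, and over the 12 markers that could be tested from the 6 libraries alone the median was 0.77. None passed the test, the Adipoq difference being 6.43 ± 2.05 (adjusted p = 0.147). Medians against WT were 0.02 in KO1 and -3.92 in KO2. The test called 3 of 12 markers higher from the 6 libraries alone, 2 higher and 1 lower without WT tumour 1, and 8 higher with DESeq2. The summed level of the list, 724 to 1153 CPM in KO1 and 837 to 999 CPM in KO2, overlapped. Cultured cells held 416 to 431 CPM (KO1) and 415 to 448 CPM (KO2) of the same list, so its sum is not a measure of fat alone.

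Muscle filament genes did not separate the lines. The summed genes of the muscle filament and Z-disc were 494, 1235 and 624 CPM in KO1 and 53.6, 1046 and 136 CPM in KO2 tumours. KO2 tumour 2 lay inside the KO1 range, the other two KO2 tumours lay below it, and WT tumours ran from 29.2 to 4758 CPM. Of 24 members tested none passed and none had ranges apart, with a median log2 difference of 0.95. Skeletal actin, Acta1, was 72.8, 222 and 124 CPM in KO1 and 4.7, 180 and 24.3 CPM in KO2, a log2 difference of 1.01 ± 1.83 (adjusted p = 0.829). Without KO2 tumour 2 and WT tumour 1 the median of the list became 3.22 and 4 members were called higher, as were 6 of 18 genes of muscle calcium handling (median 3.26), beside 1.69% of the 14637 genes tested in that fit (1.13% higher, 0.553% lower). Genes of muscle regulators and regeneration did lie apart as a list: they summed to 29.5, 38.3 and 30.2 CPM in KO1 and 14.5, 24.9 and 18.1 CPM in KO2 tumours, with 70.2 to 79.4 CPM in the KO1 and KO2 cells. Of 8 tested, 3 had ranges apart and none passed, with a median of 1.33.

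The list medians moved when a summed host level was added to the fit as a covariate. With the muscle level the fibroblast median was 1 and the macrophage median 0.64, against 1.33 and 0.77 without it. With the leukocyte level they were 0.64 and 0.30, the mast cell median was 0.36, the MHC class II median 0.23 and the adipocyte median 1.62. With that covariate the muscle filament median was -1.95.

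Y-linked genes gave another view of host RNA, since all 4 genes of the Y-linked list had 0 counts in every KO1 and KO2 cell library. In tumours they summed to 31.0, 22.3 and 15.7 CPM in KO1 and 14.5, 16.2 and 14.3 CPM in KO2, with WT tumours from 9.69 to 43.2 CPM. The groups overlapped through KO1 tumour 3 and KO2 tumour 2, the median log2 difference was 0.60, and none passed. The sex of the hosts is not given in the labels.

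**Figure D2:**
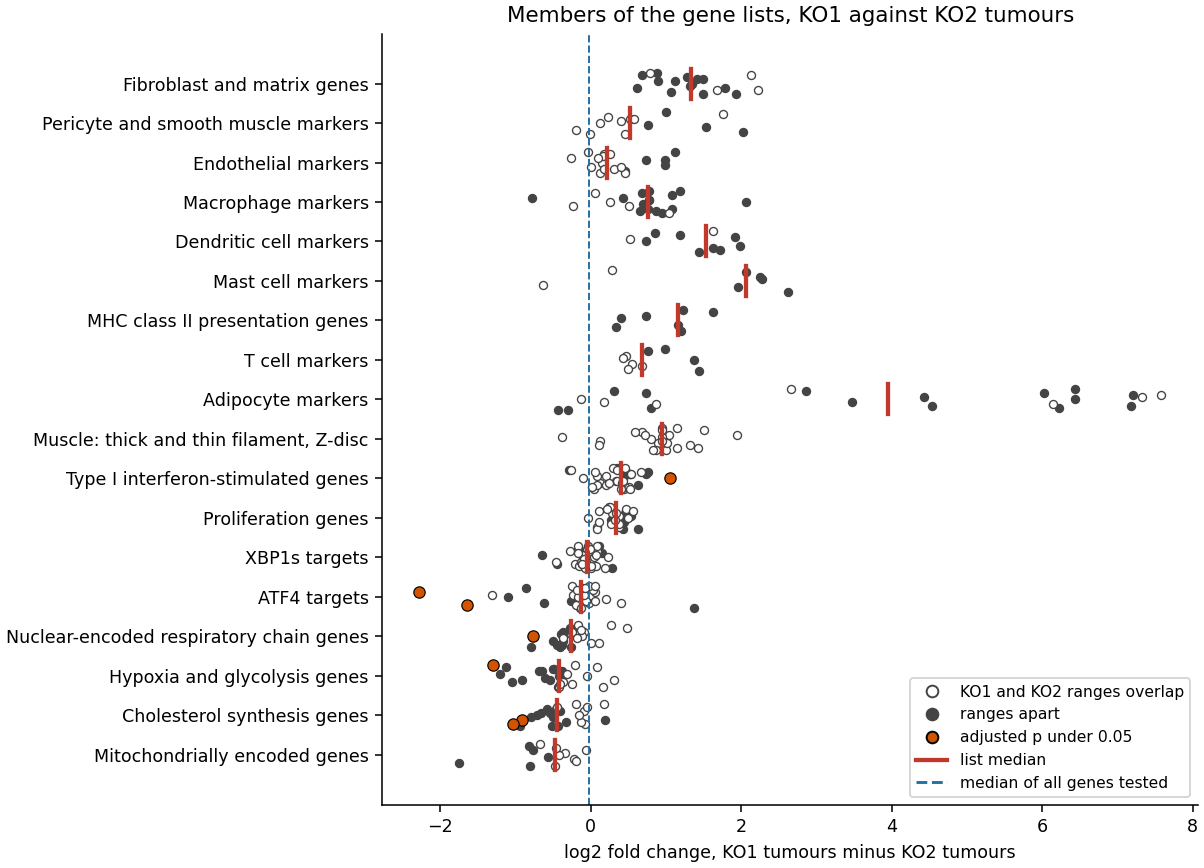
The log2 fold change of each tested member of 18 gene lists, KO1 minus KO2 tumours; open points have overlapping ranges, dark points ranges apart, orange points passed the test, red bars are list medians and the dashed line is the median of all genes. The lists of host cell types drawn here have medians from 0.22 (endothelial) to 3.95 (adipocyte), while the hypoxia, cholesterol and mitochondrially encoded lists have medians of -0.42, -0.45 and -0.48.

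Not every list of host cells was higher in KO1. Erythroid genes had a median of -0.58, with all 5 tested on the lower side. The medians were -0.22 over 2 brown adipocyte markers, of which 1 was called lower, and 0.20 over 7 Schwann cell markers, with none called. The erythroid list summed to 41.1 to 56.4 CPM in KO1 cells and 58.5 to 59.9 CPM in KO2 cells in culture. The Schwann list summed to 122 to 150 CPM in KO1 cells and 143 to 146 CPM in KO2 cells, so neither list measures host cells alone. These lists are not drawn in the plot of list members.

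Among genes detected in at least 1 of the cultured lines, Fgf1 had the smallest p of the higher genes. It encodes a fibroblast growth factor. Fgf1 was 5.27, 5.87 and 7.07 CPM in KO1, 0.53, 0.336 and 0.711 CPM in KO2 and 2.32 to 3.1 CPM in WT tumours. All KO1 tumours were above WT and all KO2 tumours below it. In culture it was 0.621 and 0.423 CPM in KO1 cells and 0 in both KO2 libraries. The log2 difference between KO1 and KO2 was 3.51 ± 0.34, an 11.4-fold higher level (adjusted p = 0.00196). Zfp799, a zinc finger protein gene, was 7.23, 4.71 and 4.36 CPM in KO1 and 1.38, 0.961 and 0.711 CPM in KO2, a log2 difference of 2.40 ± 0.30 (adjusted p = 0.00451). The gap was present in culture, at 2.8 and 3.23 CPM in KO1 cells and 0.108 and 0.0503 CPM in KO2 cells. Ptk2b, the focal adhesion family kinase PYK2, was 15, 17.8 and 17.5 CPM in KO1 and 7.03, 7.64 and 8.67 CPM in KO2, a log2 difference of 1.11 ± 0.13 (adjusted p = 0.00451). It was also higher in KO1 cells, by 0.77 (adjusted p = 0.02).

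Receptors and their partners were among the other higher genes. Notch1, the receptor of cell contact signals, was 16.1, 19.8 and 17.3 CPM in KO1 and 5.97, 8.12 and 5.97 CPM in KO2, a log2 difference of 1.41 (adjusted p = 0.0289). The receptor tyrosine kinase Axl was 46.8, 46.4 and 45.5 CPM in KO1 and 26, 25.5 and 20.6 CPM in KO2 (log2 difference 0.94), while its cell libraries were at 422 and 450 CPM in KO1 and 483 and 479 CPM in KO2. Stra6, the membrane receptor for retinol-binding protein, was 53.3, 58.6 and 59.4 CPM in KO1, 15.2, 13.8 and 12.7 CPM in KO2 and 5.14 to 14.3 CPM in WT tumours. WT tumours overlapped KO2 tumours, but WT was the highest line in culture, at 101 CPM in both libraries, against 3.99 and 3.12 CPM in KO1 cells and 0.325 and 0.252 CPM in KO2 cells. The KO1 and KO2 tumours differed by 2.04 on the log2 scale (adjusted p = 0.0347). Igsf3, an immunoglobulin superfamily membrane protein gene, was 6, 6.43 and 5.11 CPM in KO1 and 2.12, 1.82 and 1.66 CPM in KO2 tumours, a log2 difference of 1.64 (adjusted p = 0.0227). All 4 KO1 and KO2 cell libraries had 0 counts of Igsf3, while WT cells had 8.36 and 9.45 CPM.

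Enzymes and cell cycle genes completed the higher group. Ephx1, a microsomal epoxide hydrolase, was 16.2, 14.7 and 14.9 CPM in KO1 and 7.91, 6.1 and 7.25 CPM in KO2, a log2 difference of 1.11 (adjusted p = 0.018), and was also higher in KO1 cells by 0.77 (adjusted p = 0.00293). Gatm, the first enzyme of creatine synthesis, was 82.9, 79 and 75.4 CPM in KO1 and 49.7, 47.1 and 47.1 CPM in KO2, with WT tumours at 32.5 to 40 CPM and all WT, KO1 and KO2 cells at 0. Ccnd2, a D-type cyclin with 0 counts in those same cells, was 21.5, 20.5 and 15.4 CPM in KO1 and 9.93, 7.68 and 8.15 CPM in KO2 (log2 difference 1.15, adjusted p = 0.0377). Enpp1, which cleaves extracellular nucleotides, was 9.41, 10.1 and 11 CPM in KO1 and 4.66, 4.18 and 4.27 CPM in KO2 (log2 difference 1.22) and also had 0 counts in those cells. The immunoglobulin light chain segment Igkv6-14 was 0.448, 0.443 and 0.501 CPM in KO1 tumours and 0 in all KO2 tumours. It belongs to a family of near-identical segments whose reads could be shared, so its value is uncertain.

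Cps1 was among the lower genes whose call held without each library in turn. It encodes carbamoyl phosphate synthetase, the first enzyme of the urea cycle, in mitochondria. Cps1 was 12.4, 19.2 and 13.3 CPM in KO1, 89.4, 152 and 73 CPM in KO2 and 45.7 to 84.5 CPM in WT tumours. KO1 tumours were far below both other groups, and the log2 difference from KO2 was -2.81 ± 0.31 (adjusted p = 0.00451), a 7-fold lower level. In culture Cps1 was 135 and 149 CPM in KO1 cells and 273 and 238 CPM in KO2 cells, a log2 difference of -0.84 (adjusted p = 0.00092). Rgs2, which shortens G protein signals, was 70.7, 82.5 and 57.4 CPM in KO1, 165, 181 and 153 CPM in KO2 and 231 to 300.2 CPM in WT tumours. The 3 groups lay apart in that order. Rgs2 differed by -1.25 ± 0.15 between KO1 and KO2 tumours (adjusted p = 0.00451) and by 0.15 between KO1 and KO2 cells, which did not pass.

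Some lower genes were raised in KO2 instead of reduced in KO1. Bmf, a BH3-only protein that promotes apoptosis, was 16.7, 15.9 and 16.4 CPM in KO1 and 45.8, 31.1 and 38.4 CPM in KO2 (log2 difference -1.23, adjusted p = 0.00904), and was called higher in KO2 than in WT tumours by 1.49, while the KO1 difference from WT was 0.26 and not called. E2f2, a transcription factor of S phase entry, was 30.4, 34.8 and 31.5 CPM in KO1 and 69.8, 65 and 64.1 CPM in KO2 (log2 difference -1.04, adjusted p = 0.00991). E2f2 was called higher in KO2 than in WT by 0.97, with a KO1 difference from WT of -0.08 that was not called. Other genes stood low in KO1. Dio2, which activates thyroid hormone, was 4.48, 0.776 and 1.05 CPM in KO1 and 16.4, 22.5 and 16.9 CPM in KO2 (log2 difference -3.15, adjusted p = 0.0155). Txnip, a glucose-regulated arrestin family protein, was 289, 237 and 216 CPM in KO1 and 493, 465 and 498 CPM in KO2 (log2 difference -0.97, adjusted p = 0.0169). Btg2, an antiproliferative gene, was 55, 47.6 and 50.5 CPM in KO1 and 105, 105 and 107 CPM in KO2 tumours (log2 difference -1.05, adjusted p = 0.018). KO1 tumours lay below KO2 tumours without overlap for each of these genes.

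The remaining genes with the smallest p in each direction had smaller or more spread differences. On the lower side, Cttnbp2, a cortactin-binding protein gene, was 4.76, 3.27 and 2.66 CPM in KO1 and 13.9, 27.9 and 14.4 CPM in KO2 (log2 difference -2.39, adjusted p = 0.00904). Nmb, which encodes the peptide neuromedin B, was 0.897, 1.22 and 1.05 CPM in KO1 and 7.24, 2.79 and 7.87 CPM in KO2 (log2 difference -2.49). The proteasome subunit gene Psmb3 differed by -0.63, the autophagy gene Vmp1 by -0.73, the mitochondrial RNA-binding protein gene Slirp by -0.89 and the glycosyltransferase gene B3gnt7 by -1.37. On the higher side, the carboxypeptidase gene Cpq differed by 1.29, Armcx3 by 1.10, the transcriptional repressor gene Nacc2 by 0.95, the methionine sulfoxide reductase gene Msrb3 by 0.60 and the GTPase-activating protein gene Arhgap32 by 1.34. All of these passed the test and had KO1 and KO2 ranges apart.

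**Figure D3:**
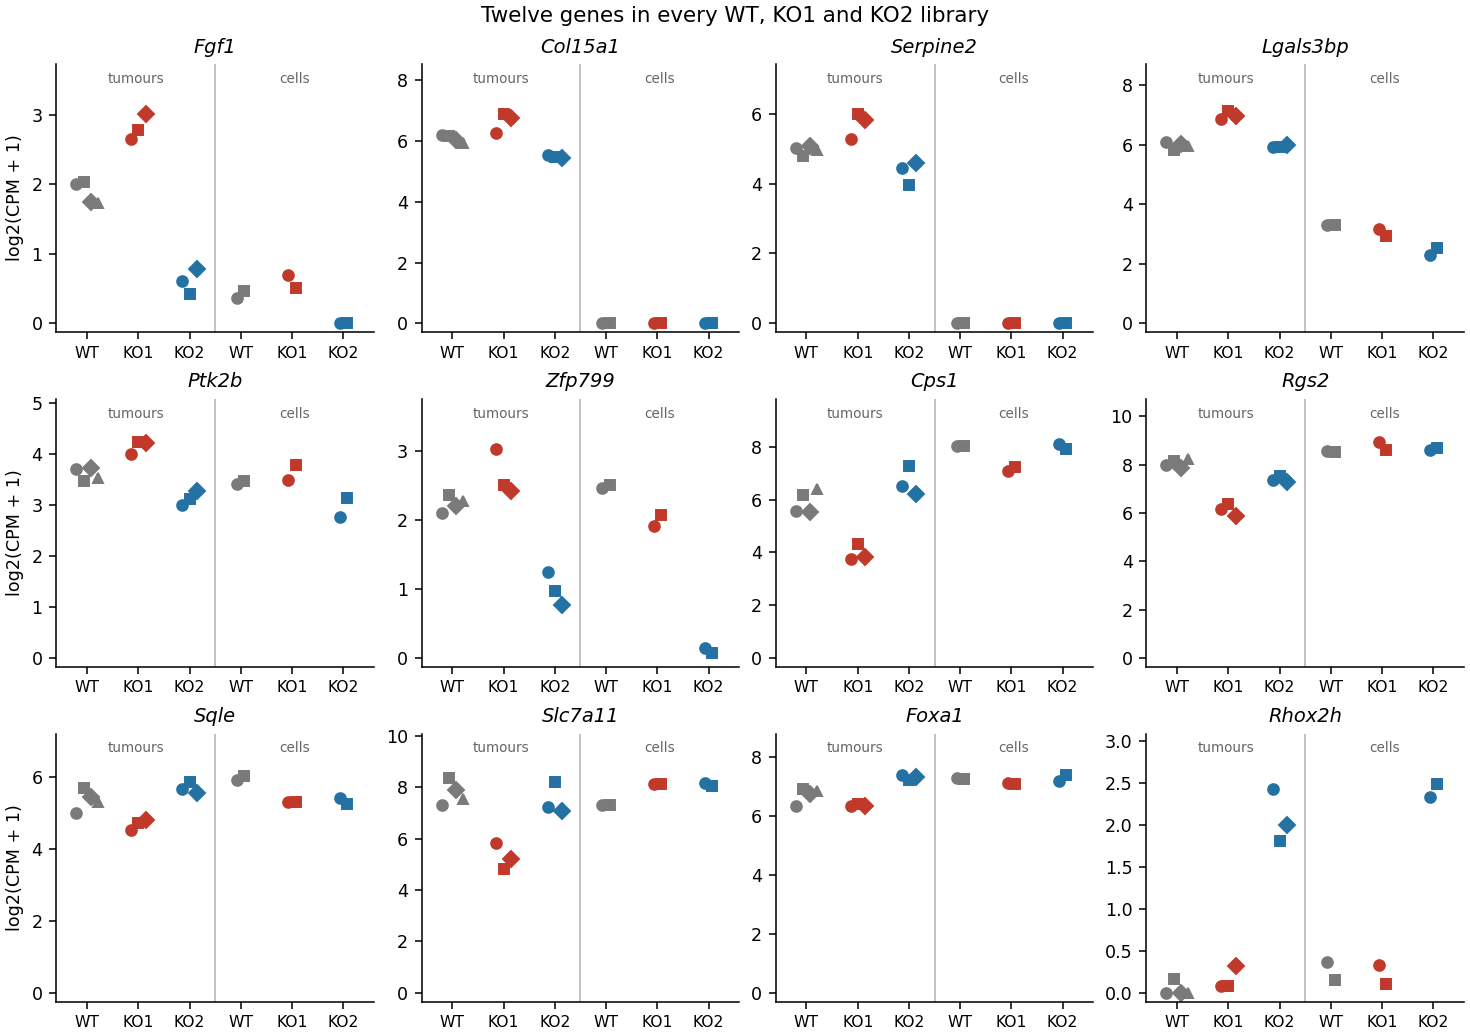
Levels of 12 genes as log2(CPM + 1) in every WT, KO1 and KO2 tumour (left in each panel) and cell library (right); each point is 1 library and its shape gives the replicate number. In the tumours the KO1 and KO2 points lie apart for all 12 genes, and for Zfp799, Rhox2h, Cps1, Ptk2b, Lgals3bp, Fgf1 and Foxa1 they lie apart in the same direction in the cells.

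Cholesterol synthesis genes were lower in KO1 tumours as a list. Of 23 tested, 2 passed and were lower, 21 were on the lower side and 14 lay below KO2 without overlap, with a median log2 difference of -0.45. Their summed level was 778, 808 and 850 CPM in KO1 and 1048, 1122 and 1006 CPM in KO2, every KO1 tumour below every KO2 tumour. Sqle, squalene epoxidase, was 22, 25.4 and 26.8 CPM in KO1, 49.5, 56.4 and 46 CPM in KO2 and 30.8 to 50.8 CPM in WT tumours, a log2 difference of -1.03 ± 0.16 (adjusted p = 0.0179). Msmo1, a sterol demethylating oxidase, was 25.4, 21.3 and 21 CPM in KO1 and 42.4, 44.7 and 40.3 CPM in KO2, a log2 difference of -0.91 ± 0.14 (adjusted p = 0.0169). Close to the threshold were Hmgcs1, an early enzyme of the pathway (-0.72, adjusted p = 0.0719), and Insig1, a feedback protein of the sterol sensor (-0.80, adjusted p = 0.088). Against WT the list median was -0.54 in KO1, with 12 members called lower, and -0.12 in KO2, with none called. KO1 and KO2 cells had a list median of 0.03. From the 6 libraries alone the test called 8 members lower, without WT tumour 1 it called 8, and DESeq2 called 7.

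Hypoxia and glycolysis genes leaned the same way. Of 25 tested, 1 passed and was lower, 22 were on the lower side and 15 lay below KO2 without overlap, with a median log2 difference of -0.42. Ankrd37, a target of the hypoxia-inducible factor, was 2.41, 3.49 and 3.16 CPM in KO1 and 7.63, 9.17 and 5.5 CPM in KO2 (log2 difference -1.30, adjusted p = 0.0418). Bnip3, a mitophagy receptor induced by low oxygen, was 101, 69.4 and 71.2 CPM in KO1 and 163, 244 and 146 CPM in KO2 and did not pass (-1.20, adjusted p = 0.0751). Against WT the median was -0.91 in KO1, with 15 members called lower, and -0.53 in KO2, with 1 called lower.

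Among ATF4 targets, the genes of the integrated stress response, 2 of 29 passed and both were lower in KO1. Slc7a11, the cystine transporter, was 56.7, 27.1 and 35.8 CPM in KO1 and 150, 296 and 133 CPM in KO2, a log2 difference of -2.28 ± 0.41 (adjusted p = 0.0279). Ddit4, an inhibitor of mTORC1, was 76.9, 102 and 99.6 CPM in KO1 and 238, 393 and 239 CPM in KO2, a log2 difference of -1.64 (adjusted p = 0.0363). KO2 tumour 2 was the highest library for both, and the groups did not overlap. The list median was -0.13, beside -0.02 over all genes tested, with 22 members on the lower side in KO1 and 7 on the higher side. Without overlap 7 lay below KO2 and 1 above, beside 13.7% and 14.4% of all genes tested. The list summed to 1694 to 2123 CPM in KO1 and 2242 to 2582 CPM in KO2, every KO1 tumour below every KO2 tumour. As a plain share of each library's counts the groups overlapped, at 0.189% to 0.237% in KO1 and 0.221% to 0.259% in KO2.

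Respiratory chain genes were slightly lower in KO1. Of 24 nuclear-encoded members tested, 1 passed, 21 were on the lower side and 12 lay below KO2 without overlap, with a median log2 difference of -0.26. Cox6c, a subunit of cytochrome c oxidase, was 356, 342 and 275 CPM in KO1 and 543, 564 and 554 CPM in KO2 (log2 difference -0.77, adjusted p = 0.018). All 13 mitochondrially encoded genes were on the lower side, with a median of -0.48 and none called. Many of these are short transcripts, and short transcripts leaned lower in KO1 tumours: genes under 1000 nucleotides had a median difference of -0.18 and 32.6% of them were on the higher side. With the trend on transcript length removed the medians were -0.23 for the nuclear-encoded and -0.27 for the mitochondrially encoded genes, and -0.48 for cholesterol synthesis.

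Few prostate and proliferation genes passed the test. Foxa1, a pioneer transcription factor of prostate epithelium, was 80.9, 83.6 and 80.2 CPM in KO1 and 169, 148 and 160 CPM in KO2, a log2 difference of -0.96 (adjusted p = 0.0456). It was the 1 member of 10 tested prostate genes that passed, and the list median was -0.35. Ranges lay apart for 7 of the 10, with KO1 above for 2 and below for 5, beside 28.1% of all genes. Acpp, prostatic acid phosphatase, went the other way at 3.31, 3.66 and 5.26 CPM in KO1 and 0.671, 0.768 and 0.806 CPM in KO2 (log2 difference 2.44, adjusted p = 0.0578), and in cells its difference of 3.15 was called. Of 25 proliferation genes 24 were on the higher side in KO1, with a median of 0.34 in tumours and 0.26 in cells, and none passed in tumours.

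The same line difference was measured in culture, where 368 of 12254 genes (3%) differed between KO1 and KO2 cells, 1.37% higher and 1.63% lower in KO1. Of the 96 tumour genes, 72 could be tested in cells, and 51 of these (70.8%) had the same sign there. A total of 15 genes were called in both, all with the same sign, which is 20.8% of those 72 and 4.23% of the 355 cell genes that could be tested in tumours. Of the 25 proliferation genes, 4 were called higher in KO1 cells. Of those 355, 258 (72.7%) had the same sign in tumours, beside 54.8% of all 11900 genes tested in both, and 128 (36.1%) had tumour ranges apart in the same direction. Across genes the log2 differences in cells and tumours had a Pearson correlation of 0.15 over all 11900 and 0.51 over the 355. Genes are not independent replicates, and the labels do not say that the libraries of a line came from separate cultures or animals.

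The genes shared by culture and tumours include Zfp799, Stra6 and Cps1, given above. Rhox2h, an X-linked homeobox gene, was 0.056, 0.0554 and 0.251 CPM in KO1 and 4.38, 2.5 and 2.99 CPM in KO2 tumours, a log2 difference of -4.67 ± 0.77 (adjusted p = 0.0183), and -4.75 in cells. It has near-identical copies in its cluster, so its reads could be split and the value is uncertain. Fgfbp1, a secreted carrier of fibroblast growth factors, was 1.68, 2.66 and 1.7 CPM in KO1 and 6.71, 6.53 and 9.2 CPM in KO2 tumours, with a log2 difference of -1.89 in tumours and -1.94 in cells. Zfp30, another zinc finger protein gene, was 0.785, 1.16 and 0.701 CPM in KO1 and 0.106, 0.096 and 0.0948 CPM in KO2 tumours, a log2 difference of 3.07 that rests on few counts in KO2 (adjusted p = 0.037). Rgl3, a regulator of Ral signalling, was 0.336, 0.222 and 0.301 CPM in KO1 and 1.2, 1.97 and 1.14 CPM in KO2 tumours, and differed by -2.30 in tumours and by -5.99 in cells. The KO1 and KO2 tumour ranges lay apart for each of these genes.

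**Figure D4:**
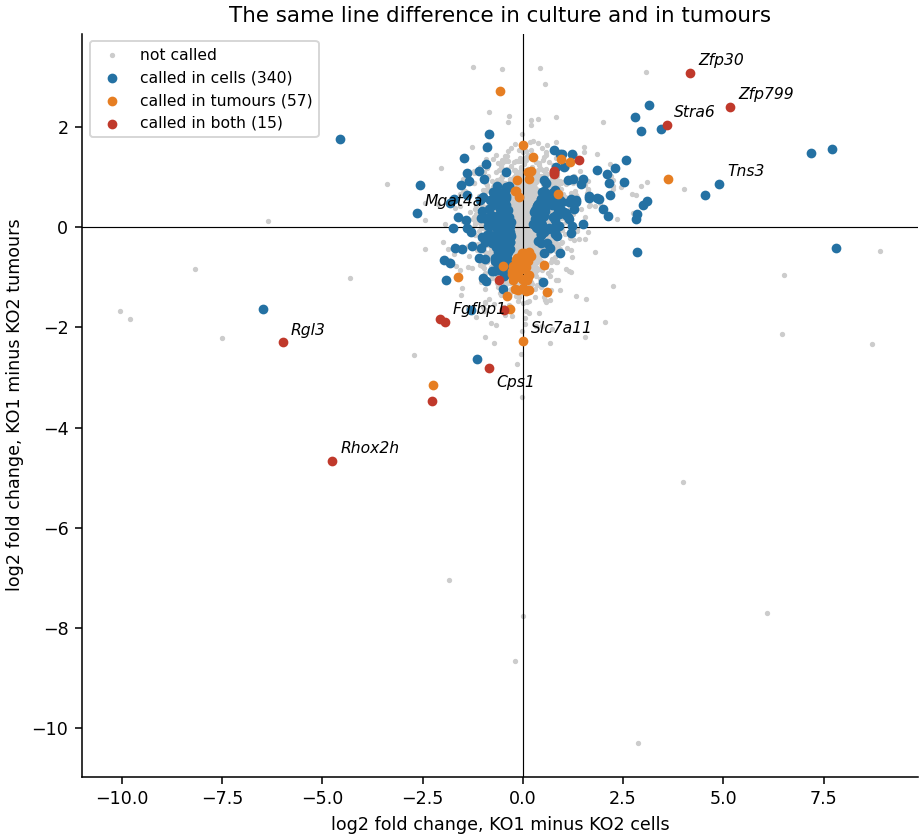
The log2 fold change KO1 minus KO2 in cells (x axis) and in tumours (y axis) for the 11900 genes tested in both; grey points were not called, blue were called in cells, orange in tumours and red in both. The 15 genes called in both lie in the upper right or lower left part, and uncalled points far from 0 are genes at or near 0 counts in 1 line.

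The difference between KO1 and KO2 was itself different in tumours and in cells for 16 of 15173 genes (0.105%; 0.0725% with a larger and 0.033% with a smaller signed difference in tumours). Mgat4a, a glycosyltransferase of N-glycan branching, was 1.04 and 1.46 CPM in KO1 cells and 8.94 and 7.05 CPM in KO2 cells, but 7.06, 5.82 and 6.31 CPM in KO1 and 5.72, 5.81 and 4.31 CPM in KO2 tumours. The tumours overlapped, and the gap was wider in cells: the signed log2 difference, KO1 minus KO2, was higher in tumours than in cells by 2.99 (adjusted p = 0.0128). Tns3, a focal adhesion adaptor, showed a wide gap in cells, at 2.9 and 2.15 CPM in KO1 against 0.108 and 0.0503 CPM in KO2, and a narrower one in tumours, at 19.3, 24.1 and 18.4 CPM against 11.6, 12 and 10.3 CPM. F2r, a thrombin receptor, was lower in KO1 than in KO2 cells and leaned higher in KO1 tumours, at 42.9, 46.2 and 40.4 CPM against 33.6, 25.2 and 27.6 CPM. Rgs2 was among the 16, with the gap in tumours and not in cells described above. Without the first KO1 cell library none of the 16 calls held in that test (0 called, 632 at an unadjusted p under 0.05), and without the second KO1 cell library 6 held.

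RNA of genes near 0 in culture, library depth and transcript length moved with the lines as given above. Compared with KO2, the KO1 tumours had a larger share of genes near 0 in culture, fewer counts per library and lower values of short transcripts. Their part in the differences of single genes was not tested beyond the fits named here. With the summed leukocyte level as a covariate 119 genes were called and with the muscle level 113, against 96 without. Of the 96, 60 were still called with the leukocyte level and 83 with the muscle level.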

How the data were processed

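Polyadenylated RNA of tumours and cultured cells was sequenced from stranded libraries as paired 50 bp reads, per the labels' protocols. The authors deposited estimated counts per gene, as a plain table and as one scaled by transcript length. The tools named are STAR, Salmon 1.5.2 and Trim Galore 0.6.7, on build GRCm38, per the submitters' processing notes, with settings not given in the sources used here. Among 45706 gene IDs, 45143 were found in GENCODE M21, which gave positions, transcript lengths and Y-linkage.

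The plain estimated counts were rounded to whole counts, filtered with filterByExpr and given TMM factors, and edgeR 4.0.16 (limma 3.58.1, R 4.3.3) ran its quasi-likelihood F test, with Benjamini-Hochberg adjustment over all genes tested and a threshold of 0.05. Adjusted p values of single genes come from it unless another tool is named. The 13 tumour libraries of 4 lines shared 1 fit, the 8 cell libraries another and all 21 the interaction. CPM use the TMM scaling of the fit, and log2 differences carry their standard error as ±. Alternatives were DESeq2 1.42.0, RLE scaling, no filter, the length-scaled table, fewer groups, the replicate block, covariates of summed muscle or leukocyte log2 level, each library left out and, chosen after seeing the data, 2 libraries left out together and removal of the length trend. Each test was run on simulated counts with known changes. Of 2-fold changes it recovered 56% in tumours, 95% in cells and 30% for the interaction. Of 4-fold changes it recovered 91%, 100% and 81%. False calls were 3.29%, 7.14% and 5.13% of all calls, in the same order.

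Members and gene lists were chosen with earlier results of these data known. Named genes were, of called genes averaging log2 CPM 1 or more and with a proper symbol, the 15 with the smallest p in each direction in tumours and the 10 in cells, 5 for the interaction, the 10 with the largest smaller difference among genes called in both, the 3 with the smallest p in each list, and fixed markers; the text gives part of these. Notch1, Col6a3, Col8a1, Mpeg1, Gatm, Ccnd2, Enpp1 and Igkv6-14 were named after their values were seen. Differences between replicates exceeded counting noise for every pair compared (lowest chi-square per degree of freedom 7.98). Precision is set by 3 tumours per line. Results on a few genes are not reported here.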

Additional observations from a re-analysis of the deposited data

Results flagged for a closer look

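WT tumour 1 stood far from the other WT tumours in several host measures that serve here as the reference for KO1 and KO2. Its genes near 0 in culture made up 2.02% of CPM, against 0.547% to 0.785% in the other WT tumours. Its muscle filament and Z-disc genes summed to 4758 CPM, against 29.2 to 111 CPM. Mast cell markers summed to 42.7 CPM, against 7.45 to 11.7 CPM, and Y-linked genes to 43.2 CPM, against 9.69 to 13.8 CPM. Adipoq was 38.4 CPM in it, against 2 to 5.81 CPM. In WT tumour 2 Rhox2h was 0.116 CPM while the other WT tumours had 0 counts, a difference of a few counts. These levels were marked because the gap to the nearest tumour was a larger part of the range than 0.829, and chance marks about 1 in 20 groups of 4. Without WT tumour 1 the count of genes that differed between KO1 and KO2 tumours was 640 instead of 96.

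The difference between KO1 and KO2 was not the same in tumours as in cells for the following genes, by an interaction term in edgeR's quasi-likelihood test. The signed log2 difference, KO1 minus KO2, was higher in tumours than in cells by 2.99 for Mgat4a, 1.61 for Tmc4, 2.46 for Pard6g, 1.07 for F2r and 2.23 for Krt78 (adjusted p from 0.0128 to 0.0234). It was higher by 3.75 for Rgl3 and by 0.98 for Frmd4a. It was lower in tumours, with a tumours minus cells value of -1.23 for Car14, -3.97 for Tns3, -1.34 for Rgs2, -0.73 for Polb and -6.18 for Gm8300. Each of these calls was lost without at least 1 cell library.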

How the results depend on the processing

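Medians of the fibroblast, macrophage, dendritic, mast, MHC class II, adipocyte, interferon, hypoxia, cholesterol and respiratory chain lists kept their sign under every alternative run. Some other lists did not. The Y-linked median of 0.60 became -0.31 with the leukocyte covariate. The Schwann median of 0.20 became -0.02 with the muscle covariate and -0.13 with the leukocyte covariate. The XBP1s target median of -0.05 became 0.0026 with the leukocyte covariate. Counts of called genes did not keep their size. For KO1 against KO2 tumours (96 genes) the count was 57 on the authors' length-scaled table, 703 with DESeq2, 617 from the KO1 and KO2 tumours alone (95 shared with the 96), 59 at an absolute log2 difference of 1 or more, and 247 without KO2 tumour 2 and WT tumour 1, an alternative chosen after seeing the data. Leaving out single libraries gave 13 to 640. It was 97 with RLE scaling, 99 without the low-count filter and 71 with KO3 left out. For KO1 against WT tumours (1532 genes) the count was 2313 without KO2 tumour 2 and WT tumour 1, and 754 to 2506 when single libraries were left out. For KO2 against WT tumours (441 genes) it was 1033 with DESeq2 and 149 to 548 when single libraries were left out. For KO1 against KO2 cells (368 genes) it was 932 without the filter, 98 on the length-scaled table and 123 to 553 when single libraries were left out. For the difference between tumours and cells (16 genes) it was 8 on the length-scaled table, 106 with DESeq2, 32 from KO1 and KO2 libraries alone, and 0 to 64 when single libraries were left out. The cause of these shifts was not tested.

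With the replicate number as a block, 166 genes were called between KO1 and KO2 tumours (78 higher, 88 lower). The numbers do not pair the tumours: deviations of same-numbered tumours correlated at 0.063, 0.021 and 0.213.

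Some uncalled differences changed sign. Ern1 was -0.00555 on the length-scaled table, -0.0129 with the length trend removed, and -0.0265 to 0.123 when single libraries were left out. Dnajb9 was 0.0627 with the muscle covariate, 0.0649 with the leukocyte covariate, and -0.266 to 0.0342 when single libraries were left out. Acta1 was -0.14 with the muscle covariate and -2.02 with the leukocyte covariate, and 0.444 to 3.27 when single libraries were left out. Ptprc was -0.16 with the leukocyte covariate and 0.256 to 0.857 when single libraries were left out. Acta1 is a member of the list behind the muscle covariate, and Ptprc of the list behind the leukocyte covariate. A fall of each with its own covariate was therefore built into the fit. The cell difference of Rgs2 ran from -0.00874 to 0.302 when single libraries were left out. The depth of the KO1 tumours, the shallowest of the compared groups, limits what can be seen of the rarest markers.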

Other observations

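Chromosomes showed small shifts that the comparisons above do not use, given here as values. Between KO1 and KO2 cells the median log2 difference was -0.10 on chromosome 15, with 26.5% of genes positive, and -0.09 on chromosome 19, with 30.0% positive. In tumours the median was 0.11 on chromosome X, with 65.2% positive, and 0.07 on chromosome 1, with 58.0% positive. These chromosomes were named after their values were seen. Whether the lines differ in chromosome copy number was not tested.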
